A study of Rattus norvegicus with 15 samples.

Results

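Enzymes that break down dopamine and clear the aldehyde it yields were followed in neurons that had been laser-captured from the rat midbrain. The regions compared were SNc, the compact part of the substantia nigra, and VTA, the neighbouring ventral tegmental area. The genes were Maoa, Maob, Aldh1a1 and Aldh2, which is 4 of the 4736 gene symbols on the array. They were taken as every probe set (a group of short probes against 1 transcript) whose platform symbol was one of these names, with no use of its signal. That gave 5 probe sets, 2 for Maoa and 1 for each of the other genes, and all 5 passed the filter on dim signals. The genes themselves were chosen with earlier results of these data known.

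Total RNA of the captured neurons was profiled with an Affymetrix rat array, on 8 SNc and 7 VTA arrays. SNc replicates are numbered 1 to 8 and VTA replicates 1 to 6 and 8. The sources used here give no treatment, genotype, strain, age or number of animals, and do not say how neurons were recognised before capture. A p-value therefore sets a difference against the spread of these arrays, which may be partly technical.

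Monoamine oxidases A and B sit on the outer membrane of mitochondria and remove the amine group of dopamine, noradrenaline and serotonin, which releases hydrogen peroxide and, from dopamine, the reactive aldehyde DOPAL. Aldehyde dehydrogenases then oxidise DOPAL to the acid DOPAC, Aldh1a1 in the cytosol and Aldh2 in the mitochondrial matrix. Maoa is known from catecholamine neurons and Maob from serotonin neurons and astrocytes, while Aldh1a1 marks a subset of midbrain dopamine neurons.

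Maoa had a lower signal in SNc than in VTA by both of its probe sets, a 1.82-fold and 1.81-fold difference, and both passed the test. Maob, the second oxidase, lay 1.53-fold higher in VTA but missed the threshold. Aldh1a1 and Aldh2, which act on the aldehyde, did not pass either, with differences of 0.19 and 0.07 on the log2 scale. Differences are SNc minus VTA of log2(signal + 16), tested with limma across 5244 probe sets with p-values adjusted by Benjamini-Hochberg and called under 0.05. Of the 5 probe sets 2, both of Maoa, were lower in SNc and 0 higher. Beside them were 104 of the 5244 in either direction (1.98%), 60 lower (1.14%) and 44 higher in SNc (0.839%). By gene, only Maoa of the 4 passed, beside 70 of 3221 genes (2.17%). In 0 of the 5 probe sets were the arrays of the regions fully apart, beside 45 of the 5244 (0.858%). With the arrays centred on their medians, 37 of 104 calls were lower in SNc.

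**Figure D1:**
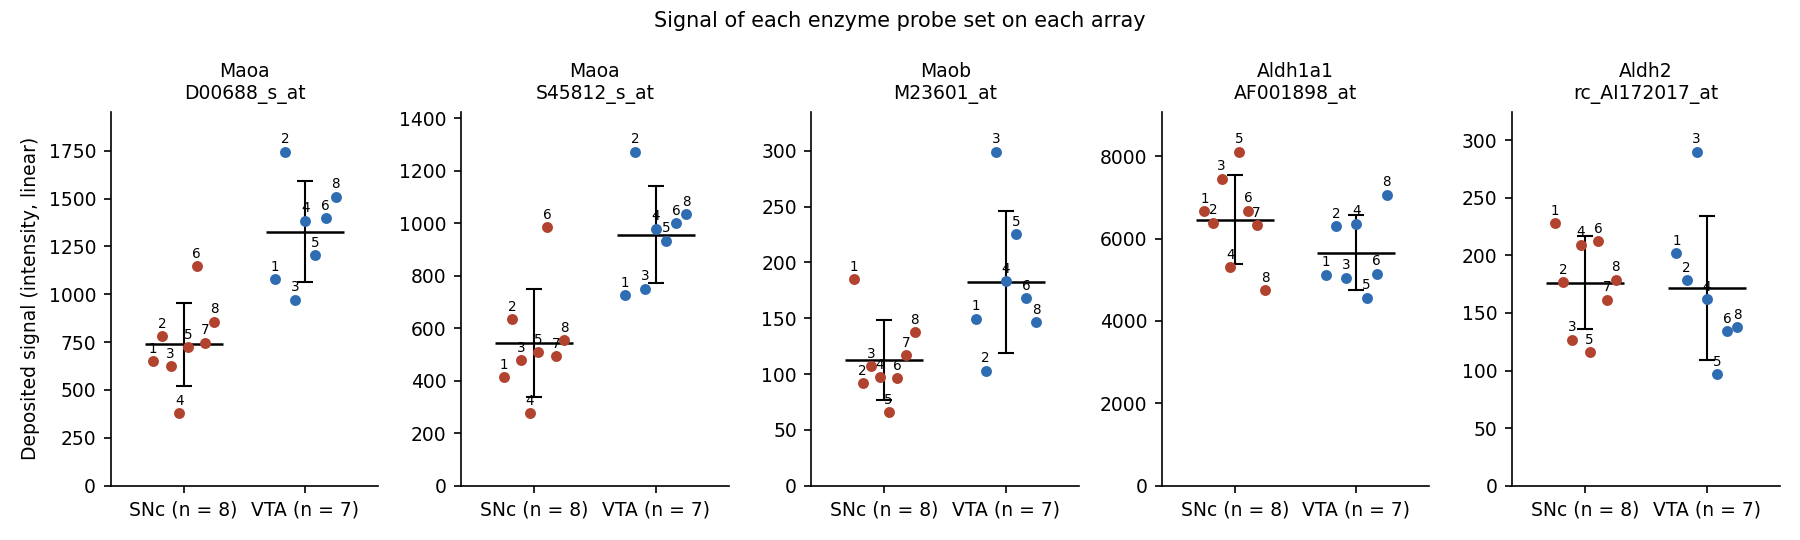
Deposited signal (linear intensity, axis from 0) of each of the 5 probe sets on each array, SNc left and VTA right; numbers are replicate numbers, the horizontal line is the mean and the bar 1 SD. For both Maoa probe sets 7 of 8 SNc arrays lie below the lowest VTA array, while 6 of 8 SNc arrays for Aldh1a1 and all 8 for Aldh2 lie within the VTA range.

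Maoa and Maob are neighbours on the X chromosome, with 0 annotated genes between them in the RefSeq gene table. The stretches directly before their starts are shown because these are the 2 oxidase genes, both with lower mean signal in SNc. Each is the 250 bases before the annotated start, from RefSeq on GRCr8, read 5′ to 3′ along the gene, with every GGGCGG or its reverse complement CCGCCC in capitals. The Maoa stretch is chrX:8681373-8681622 on the minus strand and the Maob stretch chrX:8490155-8490404 on the plus strand.
Maoa: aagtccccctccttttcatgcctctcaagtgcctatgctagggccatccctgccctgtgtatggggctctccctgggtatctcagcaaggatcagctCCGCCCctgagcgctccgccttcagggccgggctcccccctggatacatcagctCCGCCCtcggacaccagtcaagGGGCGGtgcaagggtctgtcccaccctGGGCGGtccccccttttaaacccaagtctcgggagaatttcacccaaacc
Maob: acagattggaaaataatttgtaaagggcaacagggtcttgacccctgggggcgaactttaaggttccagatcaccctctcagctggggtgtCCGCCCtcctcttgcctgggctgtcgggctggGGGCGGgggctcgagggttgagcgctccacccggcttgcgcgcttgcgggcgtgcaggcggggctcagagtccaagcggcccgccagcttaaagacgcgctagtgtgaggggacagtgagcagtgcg
These letters match the GC box, the motif bound by Sp1-family factors. The Maoa stretch holds 4 and the Maob stretch 2, where 30.5% of 33469 rat promoter windows of this length hold at least 1, 14.8% hold 2 or more and 3.67% hold 4 or more. GC content was 62.4% and 63.6%. The motif CACCC, searched on both strands, occurred 2 times in Maoa and 3 times in Maob, overlapped no GC box there, and was present in 49.2% of all windows. TATAAA, on both strands, was in neither and in 12.9% of all windows. The Aldh1a1 window held 0 matches to any of the 3 motifs. These are matches of letters in a window, not sites shown to be bound.

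Maoa, the oxidase with preference for serotonin and noradrenaline that also oxidises dopamine, was measured by 2 probe sets. By D00688_s_at, the brighter one, the SNc arrays had a lowest signal of 378.2, a median of 735.8 and a highest of 1145, against 971.7, 1385 and 1745 in VTA. The regions overlapped only through SNc 6, the highest SNc array, which lay above VTA 1 and VTA 3. Means were 738.8 ± 217.6 in SNc and 1327 ± 264.5 in VTA (SD, n = 8 and 7). The log2 difference was -0.86 (SE 0.19, 95% interval -1.26 to -0.46, limma adjusted p = 0.0238), and an exact two-sided permutation of the 6435 array labellings gave p = 0.000777. All 8 SNc arrays were under the VTA mean and all 7 VTA arrays over the SNc mean on the log2 scale. The probe set was number 52 of 5244 by p.

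S45812_s_at, the dimmer Maoa probe set, gave nearly the same difference. Its signals in SNc ran from 276.9 through a median of 501.5 to 985.5, against 725.8, 978.9 and 1273 in VTA. SNc 6 was again the array inside the VTA range, and the other 7 SNc arrays lay under every VTA array. The log2 difference was -0.85 (SE 0.20, 95% interval -1.28 to -0.43, limma adjusted p = 0.0366; exact permutation p = 0.00202). The signal of S45812_s_at over that of D00688_s_at on the same array averaged 0.727 ± 0.0816 in SNc and 0.722 ± 0.0392 in VTA, so the regional difference was shared by both. After the region means were removed, the log2 values of both probe sets correlated over the 15 arrays with a Pearson r of 0.954, as a description. They read 1 transcript on the same arrays and are not independent measurements of it.

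**Figure D2:**
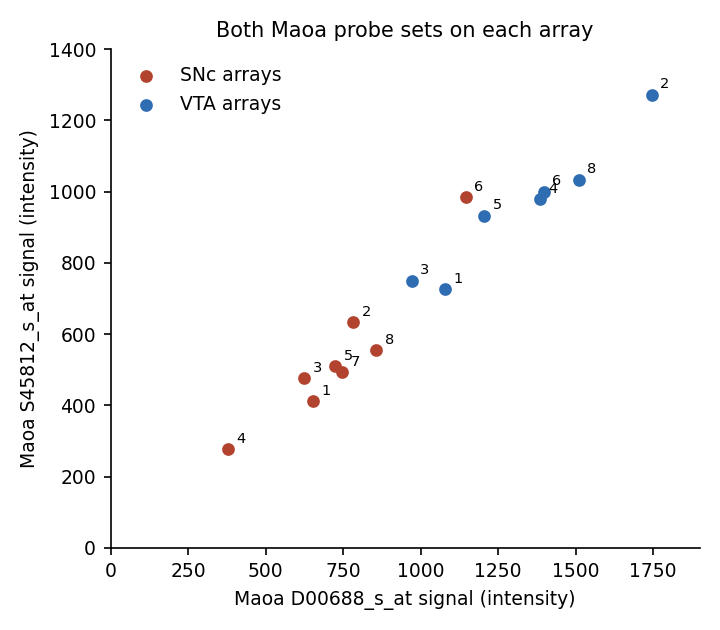
Signal (linear intensity) of the Maoa probe set S45812_s_at against D00688_s_at, 1 point per array with its replicate number, SNc in red and VTA in blue. The points lie along 1 line, with SNc 4 lowest, VTA 2 highest and SNc 6 among the VTA arrays.

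The size of the Maoa difference moved little when any 1 array was left out, and its adjusted p lay near the threshold. For D00688_s_at the log2 difference ran from -0.96 to -0.74 over the 15 fits without 1 array, and the call was lost without SNc 3 (adjusted p = 0.0522), VTA 2 (adjusted p = 0.0623) or VTA 6 (adjusted p = 0.0506). For S45812_s_at it ran from -0.99 to -0.73, and the call was lost without any of SNc 1, SNc 3, SNc 4, VTA 2, VTA 4, VTA 5, VTA 6 and VTA 8, with adjusted p up to 0.0845 in limma. Without SNc 6, the SNc array nearest to VTA, the adjusted p was 0.00712 for D00688_s_at and 0.00484 for S45812_s_at. The median correlation with the remaining arrays was lowest for VTA 5 and VTA 8, at 0.910 and 0.919, and between 0.926 and 0.941 for the rest. With both left out, an alternative chosen after seeing the data, the differences were -0.84 and -0.83 and neither passed (limma adjusted p = 0.0602 and 0.0818).

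**Figure D3:**
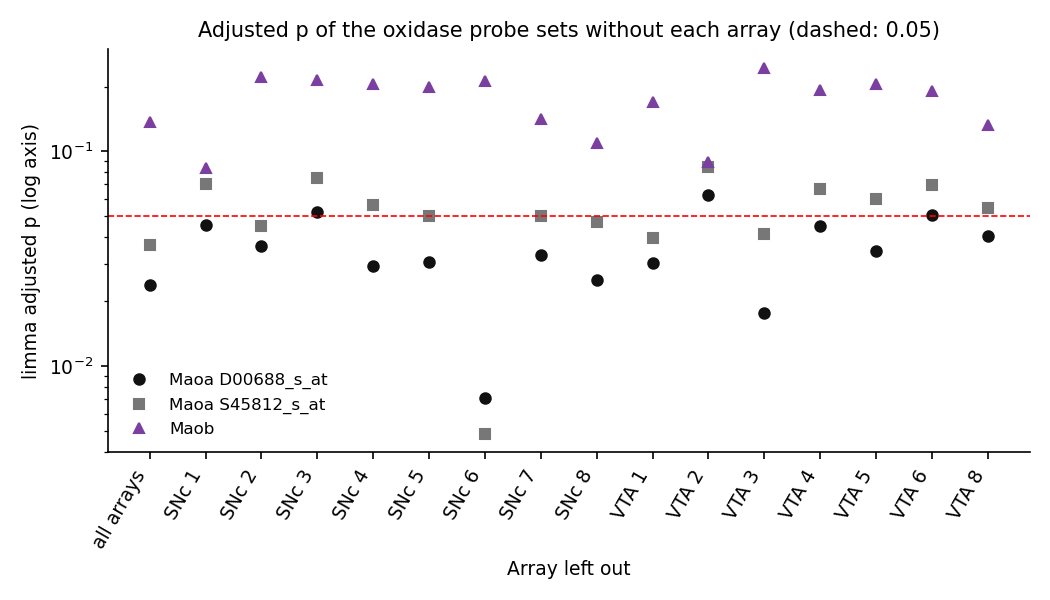
Adjusted p from limma (log axis) of both Maoa probe sets and of Maob with all arrays and without each array in turn; the dashed line is 0.05. Maob stays above the line in all 15 fits, between 0.0837 and 0.245.

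Maob, the oxidase with preference for phenylethylamine that also oxidises dopamine, had a dimmer probe set. Its SNc signals were 65.97 at the lowest, 102 at the median and 184.9 at the highest, against 103.1, 168.1 and 299.4 in VTA. The regions overlapped, with 4 of 8 SNc arrays below every VTA array and SNc 1, the highest SNc array, below only 2 VTA arrays. Means were 112.2 ± 35.86 in SNc and 182.2 ± 63.75 in VTA (SD, n = 8 and 7). The log2 difference of -0.61 (SE 0.20, 95% interval -1.04 to -0.19) did not pass (limma adjusted p = 0.137, unadjusted p = 0.00722), and the exact two-sided permutation, unadjusted, gave p = 0.0138. On the log2 scale 7 of 8 SNc arrays were under the VTA mean and 6 of 7 VTA arrays over the SNc mean. The Maoa and Maob intervals overlap, and whether both genes differ by the same amount was not tested.

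Maoa and Maob showed no positive correlation from array to array within either region. In VTA the array with the highest Maoa signal, VTA 2, had the lowest Maob signal, and VTA 3 had the lowest Maoa and the highest Maob signal. The correlation of log2 values over the 7 VTA arrays was r = -0.799 (exact permutation p = 0.029) and rho = -0.786 (exact permutation p = 0.048), and neither passed after adjustment over 12 relations, 6 gene pairs in 2 regions (adjusted p = 0.348 and 0.529). Without VTA 1 and VTA 3, the 2 arrays farthest from the median of Maoa, it was -0.993 over 5 arrays, which still held VTA 2. The correlation without both VTA 2 and VTA 3 was not computed. Over the 8 SNc arrays it was r = -0.011 (exact permutation p = 0.96) and rho = -0.119 (exact permutation p = 0.793), and -0.128 over 6 arrays without the 2 farthest. None of the other 10 relations had an unadjusted p under 0.05, the smallest being that of Maoa and Aldh1a1 in VTA (r = 0.695, rho = 0.714, exact permutation p = 0.0881 for both, adjusted p = 0.411 and 0.529, r = 0.707 without 2 arrays).

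**Figure D4:**
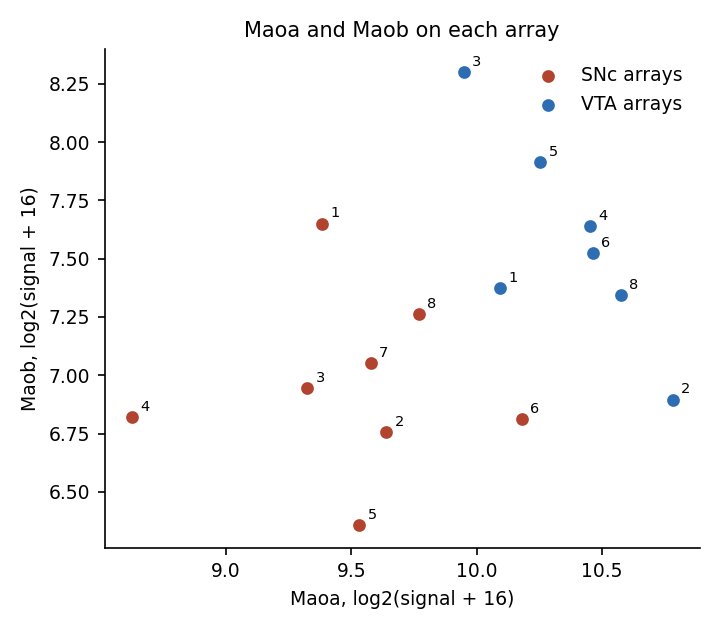
Maob against Maoa (D00688_s_at), both as log2(signal + 16), 1 point per array with its replicate number, SNc in red and VTA in blue. The VTA points run from high Maob and low Maoa (VTA 3) to low Maob and high Maoa (VTA 2), while the SNc points show almost no slope (r = -0.011).

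Aldh1a1, the cytosolic aldehyde dehydrogenase, was bright on every array of both regions. Its signal in SNc was 4739 at the lowest, 6523 at the median and 8111 at the highest, against 4561, 5148 and 7066 in VTA. The ranges overlapped, with 2 SNc arrays, SNc 3 and SNc 5, above every VTA array and 1 VTA array, VTA 5, below every SNc array. Means were 6457 ± 1076 in SNc and 5659 ± 913.6 in VTA (SD, n = 8 and 7). The log2 difference of 0.19 (SE 0.14) did not pass (limma adjusted p = 0.569; exact permutation p = 0.153), and its 95% interval of -0.11 to 0.49 leaves out a difference of the size seen for Maoa in either direction.

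Aldh2, the mitochondrial aldehyde dehydrogenase, had nearly the same mean in both regions and a wider spread in VTA. Its signal was 116.1 at the lowest, 177.7 at the median and 227.9 at the highest in SNc, against 97.09, 162 and 290.2 in VTA. The VTA range held the whole SNc range. Means were 176.2 ± 40.29 in SNc and 171.7 ± 62.25 in VTA (SD, n = 8 and 7). The log2 difference was 0.07 (SE 0.19, 95% interval -0.34 to 0.48, limma adjusted p = 0.906; exact permutation p = 0.741). Its sign was negative without VTA 5 (-0.04). True differences within the 95% interval, in either direction, are not excluded by these values.

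The 4 dopamine neuron genes chosen as markers were bright on every array of both regions, and 0 of the 4 passed in limma, beside 2.17% of all genes. The unadjusted p was under 0.05 for 1 of them, Slc6a3, beside 15.5% of all genes. The sum of Th, Ddc, Slc6a3 and Slc18a2 ran from 18228 to 22374 in SNc and from 14746 to 21568 in VTA. Th, which makes the dopamine precursor, differed by -0.12 (SE 0.12), and Slc6a3, which takes dopamine up, by 0.34 (SE 0.13, limma adjusted p = 0.193). The second tested probe set of Slc6a3 gave 0.12 (SE 0.18, limma unadjusted p = 0.525).

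Markers of other cell types that carry these enzymes lay beside the oxidase values. The serotonin neuron list, with 3 of 4 genes on the array, summed to between 121 and 258.5 in SNc, against 222.4 to 298.4 in VTA. Slc6a4, the serotonin transporter, averaged 92.07 in SNc and 114.6 in VTA (log2 difference -0.28), and Fev, a serotonin neuron transcription factor, 113.9 in SNc and 151.4 in VTA (-0.41). Tph1, a tryptophan hydroxylase known mainly outside the brain, averaged 2.76 in SNc and 4.37 in VTA, below the signal of 26.3 at the filter. Noradrenaline neuron markers (3 of 4 genes) summed to 58.95 to 118.1 in SNc and 81.01 to 128 in VTA, with Slc6a2, the noradrenaline transporter, at 66.34 in SNc and 80.79 in VTA (log2 difference -0.24). Dbh, which makes noradrenaline and is also in the list of other amine enzymes, averaged 11.5 in SNc and 14.7 in VTA, below the filter. Astrocyte markers (7 of 8 genes) summed to 4151 to 6409 in SNc and 4290 to 6890 in VTA, with 3 of the 6 differences tested negative. Among them Aldoc, an aldolase, was at 2200 ± 498.5 in SNc and 2054 ± 541.2 in VTA. Aqp4, an astrocyte water channel, averaged 31.84 in SNc and 63.55 in VTA (log2 difference -0.60), and Gja1, a gap junction protein, 3.54 in SNc and 4.31 in VTA, below the filter. Oligodendrocyte markers (5 of 6) summed to 5269 to 9490 in SNc and 7686 to 11315 in VTA, with all 5 differences negative. They were largest for Mobp (-0.53) and Mbp (-0.36), and Mbp averaged 3784 in SNc and 4838 in VTA. Another tested probe set of Mag gave 0.036 and another of Mog -0.0072. Vessel and blood markers (6 of 7) summed to 258.2 to 576.5 in SNc and 306.7 to 1492 in VTA, with all 5 differences tested negative. Of these Hbb, a hemoglobin gene, averaged 174.4 ± 75.1 in SNc and 436.9 ± 429.5 in VTA. Pecam1, a vessel marker, averaged 44.87 in SNc and 50.13 in VTA. Microglia markers (5 of 6) summed to 78.28 to 123.8 in SNc and 69.11 to 131.2 in VTA. Within these lists 0 of the 20 genes tested passed in limma, beside 70 of all 3221 genes (2.17%), and the unadjusted p was under 0.05 for 3, beside 15.5% of all genes. The differences were negative, as for Maoa and Maob, in 17 of the 20 with a median of -0.19. Over all genes 1792 of 3221 were negative, with a median of -0.04. The smallest of the 17 were those of Mag (-0.0057), Acta2 (-0.058) and Cnp (-0.089), and another tested Acta2 probe set gave 0.43. This count was not repeated with each array centred on its median. Such centring raised every difference by the same amount, for Maob from -0.61 to -0.52. Of 3 GABA neuron markers 1 passed, Gad1, which makes GABA and was higher in SNc. Gad2 differed by 0.23 and Slc32a1 by 0.068, and the second tested probe set of Slc32a1 gave -0.42. The GABA list summed to 803.1 to 1728 in SNc and 500.3 to 923.1 in VTA. The part of these cell types in the Maoa and Maob values was not tested. Fewer cells of a type and less RNA per cell cannot be told apart in such captures. The median signal of an array averaged 41.4 ± 3.04 over SNc arrays and 45.1 ± 1.73 over VTA arrays (SD, n = 8 and 7), by an exact permutation p = 0.016, or 0.048 adjusted over 3 array measures. The other measures were the 3′ to 5′ signal ratios of the control probe sets. RNA integrity and any amplification cannot be told apart in these ratios. The actin ratio averaged 9.94 ± 2.84 over SNc arrays and 8.43 ± 0.816 over VTA arrays (exact permutation p = 0.211, adjusted p = 0.316), and the GAPDH ratio 4.33 ± 0.646 over SNc arrays and 4.64 ± 1.27 over VTA arrays (exact permutation p = 0.569, also after adjustment). With each array centred on its median, D00688_s_at still passed (-0.77, limma adjusted p = 0.0383) and S45812_s_at did not (-0.76, limma adjusted p = 0.0603).

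Among other enzymes of amines and aldehydes, 0 of 14 genes tested passed in limma in either direction, against 70 of 3221 genes (2.17%). The list was 41 genes, of which 19 had a probe set of a single symbol. Of the 14, 7 differences were positive and 7 negative, with a median of -0.01 beside -0.04 over all genes. The smallest p was that of Aldh7a1, an aldehyde dehydrogenase of lysine breakdown, with a signal of 351.2 ± 97.38 over SNc arrays and 256.9 ± 71.52 over VTA arrays (log2 difference 0.42, limma adjusted p = 0.297, unadjusted p = 0.0411), and its second probe set gave 0.44. Cbr1, a carbonyl reductase, differed by -0.32 (limma adjusted p = 0.33), and by -0.12 with its second probe set. Akr7a2, an aldehyde reductase, differed by 0.28 (limma adjusted p = 0.416), or 0.17 without VTA 8. Unadjusted, 1 of the 14 had a p under 0.05, where 15.5% of all genes did.

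Aldh1a1 also makes retinoic acid, and 0 of 7 retinoid genes tested passed in limma. The list was 23 genes, 13 with a probe set. The differences were negative in 6 of the 7 with a median of -0.37, beside 1792 of all 3221 genes with a median of -0.04. Of the 7, 2 had an unadjusted p under 0.05, beside 15.5% of all genes, and 2.17% of all genes passed. Rxrb, a retinoid X receptor, had a signal of 70.02 ± 19.02 over SNc arrays and 95.07 ± 16.99 over VTA arrays (log2 difference -0.39, limma adjusted p = 0.236). Rdh16, a retinol dehydrogenase, differed by -0.59 (limma adjusted p = 0.253). Rbp4, the retinol carrier of blood, differed by -0.73 and by -0.35 with its second tested probe set (limma adjusted p = 0.357 and 0.375). Without SNc 5 the Rbp4 difference was -0.47.

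**Figure D5:**
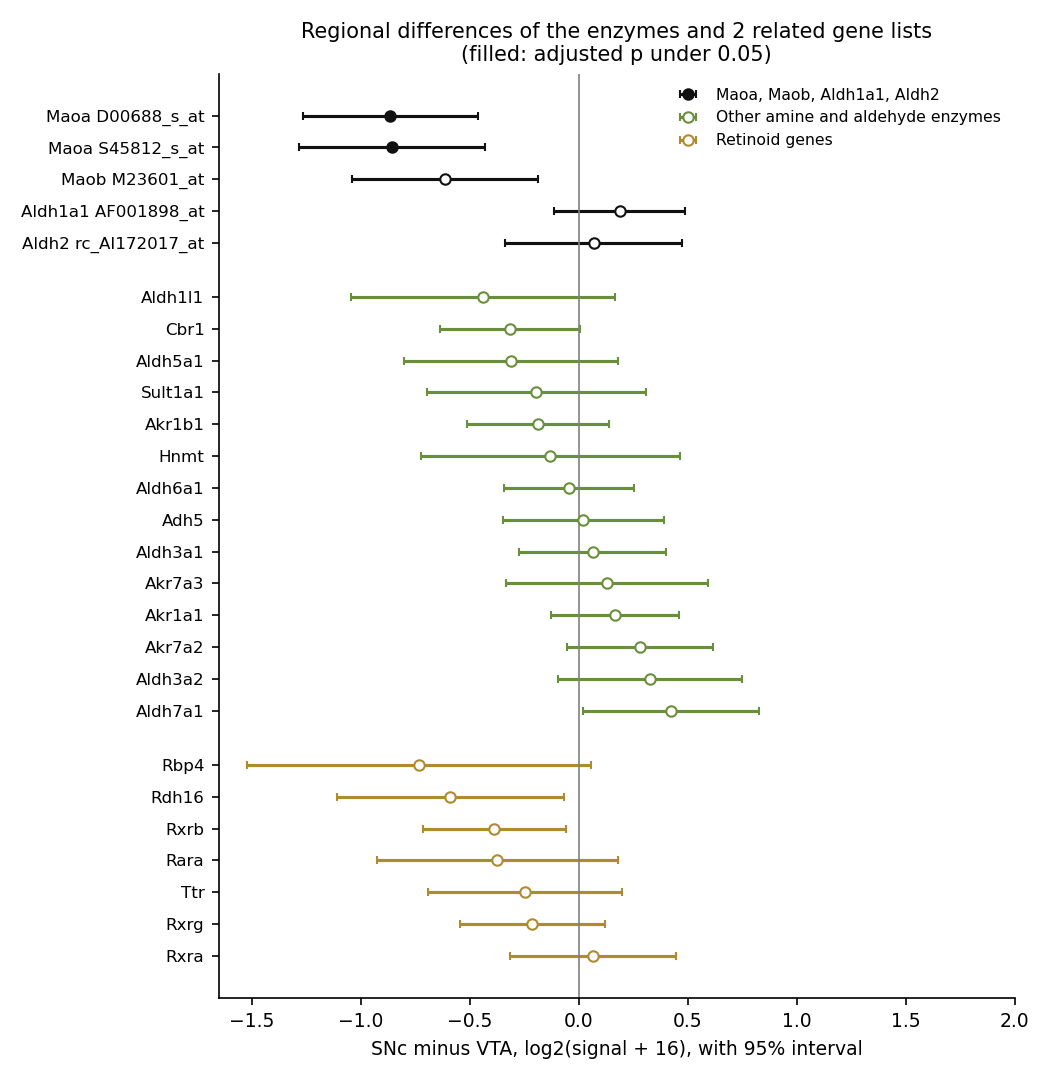
Difference SNc minus VTA on the log2(signal + 16) scale with its 95% interval for the 5 probe sets, for 14 other amine and aldehyde enzymes and for 7 retinoid genes; filled points passed at an adjusted p under 0.05. The 2 Maoa probe sets are the filled points.

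The genes whose log2 signal followed each enzyme most closely over the 15 arrays, with the region means removed, were found among 3220 other genes by Pearson r, as a description. For Maoa they were Taok1, a protein kinase (r = 0.892), Vcan, the matrix proteoglycan versican (r = 0.873), and Pard3, a cell polarity protein (r = 0.787). For Maob they were Prlr, the prolactin receptor (r = 0.788), Sdc4, a syndecan (r = 0.758), and Tpd52l2 (r = 0.756). For Aldh1a1 they were Lct, lactase (r = 0.777), Suox, sulfite oxidase (r = 0.756), and Pla2g4a, a phospholipase A2 (r = 0.739). For Aldh2 they were Cds1, a CDP-diacylglycerol synthase (r = 0.812), Sirt2, a deacetylase (r = 0.762), and Galnt6 (r = 0.759). These are the highest of 3220 correlations for each enzyme over few arrays that share their processing, and say nothing of a link between the genes.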

How the data were processed

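Captured SNc and VTA neurons were profiled on an Affymetrix rat array. The authors deposited linear intensities, 1 for each probe set on each array. By these values each array had been scaled to a common level (2% trimmed mean of 150.2 on each array), while the sources used here do not give the software, background correction or amplification. Of 8799 probe sets, 59 controls were left out. Of the other 8740, 7006 had 1 gene symbol in the platform annotation, 308 several and 1426 none. Identifiers of 6985 were found in RefSeq (GRCr8), which changed 0 symbols.

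Values were turned into log2(intensity + 16), which makes differences of dim probe sets smaller. The 40% with the lowest mean were left out, and 5244 were compared with limma 3.58.1 in R 4.3.3 (lmFit, eBayes, region only). Where a gene had several probe sets the one with the highest mean stood for it, which gave 3221 genes. The genes followed and the lists were chosen with earlier results of these data known. Named were the 4 members, 4 dopamine neuron genes, from each related list the genes past the threshold or else the 3 with the smallest p, and the 3 genes most correlated with each member. The number of arrays limits the precision. Alternatives changed the scaling (quantile or median), the offset (1 or 64), the filter (none or 60%), the variance model (array weights, or trended and robust), the summary (mean of a gene's probe sets) and the arrays used, added the replicate number as a block, or replaced limma by an exact permutation.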

Additional observations from a re-analysis of the deposited data

Results flagged for a closer look

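Rdh16 (U33500_at) had a signal of 31.7 in VTA 2, far below the other VTA arrays. The check of the highest and lowest array was made in 30 groups of arrays, of which 1 was marked, and chance marks about 1 in 20. None of the 10 groups of the Maoa, Maob, Aldh1a1 and Aldh2 probe sets was marked.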

How the results depend on the processing

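Maoa kept its sign in 28 alternatives, from -0.96 to -0.74, and passed in 24 of them, including the exact permutation, which is unadjusted. Leaving out 1 array gave that same range with limma adjusted p from 0.00712 to 0.0623, and without VTA 5 and VTA 8 it was -0.84 and did not pass. Its second probe set kept its sign in 27 alternatives and passed in 15, again including the unadjusted exact permutation. Maob kept its sign in 28, from -0.73 to -0.47, and passed only in the exact permutation (-0.61, p = 0.0138), which is unadjusted. Aldh1a1 stayed positive, from 0.10 to 0.28, and never passed. Aldh2 was negative with array weights (-0.040) and without VTA 5 and VTA 8 (-0.11), and between -0.043 and 0.20 on leaving out 1 array. No array, offset or filter brought a gene of either list past the threshold. Probe sets called, 104, were 60 with an offset of 1, 184 with array weights and 56 to 115 on leaving out 1 array. Those lower in SNc, 60, were 35, 114 and 33 to 69 under the same changes, 37 after median centring and 91 with a random replicate block. Ddc was -0.0071 after quantile normalization. Slc18a2 was -0.0039, 0.089 after median centring, 0.11 without VTA 5 and VTA 8 and -0.12 to 0.12 on leaving out 1 array. The cause of these changes was not tested. Same-numbered arrays of both regions correlated in their deviations between 0.0439 and 0.254, all positive and over 0.1 in 5 of 7 pairs, and the SNc array correlated best with the VTA array of its own number in 3 of 7. Pairing was taken only where all pairs were over 0.1, so whether the numbers pair arrays is not settled by these values. With a fixed replicate block, which drops SNc 7, Maoa was -0.87 (limma adjusted p = 0.0332) and Maob -0.63 (limma adjusted p = 0.154), and 99 probe sets were called; with a random block 153 were.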
